A study of Arabidopsis thaliana with 4 samples.

Results

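Chromatin accessibility at the 9 clade A protein phosphatase 2C (PP2C) genes of Arabidopsis thaliana was described in nuclei of root tips (5 mm) of Col-0, the reference accession, of control plants and of plants under osmotic stress, which was given as sorbitol in the medium. The genes were taken as a named family (ABI1, ABI2, HAB1, HAB2, AHG1, AHG3, HAI1, HAI2 and HAI3), and their accessible regions were all merged peaks overlapping the gene body or the 2 kb upstream. This gave 21 of the 27677 merged regions. Each group had 2 libraries, control replicates 1 and 2 and stress replicates 1 and 2, made with the 10x Multiome assay, in which ATAC reads for open chromatin and RNA come from the same nuclei, loading 15000 of them for each library. The genotype was the same in both groups, and the labels give the medium as the only difference. Only the ATAC part is reported, since the RNA rows carry no gene names in the tables used here.

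Abscisic acid (ABA) is the plant hormone of water deficit. Without ABA, clade A PP2Cs bind SnRK2 protein kinases and keep them dephosphorylated and inactive. ABA bound to a receptor of the PYR/PYL family lets the receptor capture the phosphatase at its active site, which frees the SnRK2 kinases to phosphorylate targets such as the ABF and ABI5 bZIP transcription factors. These factors bind the ABA-responsive element, a sequence with an ACGT core, and genes that carry it include PP2C genes, so that the pathway can raise the level of its own inhibitors.

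The libraries differed in size. Barcodes called as nuclei numbered 6069 and 12068 in the control and 15302 and 14552 in the stress libraries, with 47853119 to 75473335 ATAC counts in peaks. Stress replicate 1 has more such barcodes than the 15000 nuclei loaded, so not all of them can be nuclei. The study kept far fewer in both groups, so most of the 47991 barcodes used here were not among its nuclei. Where nuclei are counted below, these barcodes are meant. Control replicate 1 stood apart, with the fewest nuclei, the highest median depth (4851 counts per nucleus, against 3423.5 to 3898.5) and the fewest peaks (19858, against 24317 to 25001). Between 124 and 342 called barcodes were shared by pairs of libraries, at most 2.35% of the smaller library. A count for the whole root tip sums over cell types, so fewer nuclei of a type and lower accessibility per nucleus cannot be told apart in it.

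Most members were open around the gene start, but not all of them. A region over the start was found in all 4 libraries at ABI1, HAB1, HAB2, AHG3, HAI1 and HAI2. ABI2 (AT5G57050, chr5:23087122-23089631, plus strand) had no peak over its start and 2 regions upstream, at -1303 to -499 and -2212 to -1433 bases from the start. The second of these also covered the start of the divergent neighbour AT5G57040, a glyoxalase I family gene. Both regions lie in the window of AT5G57040 as well. AHG1 (AT5G51760, chr5:21026805-21029188), a phosphatase known for its role in seeds, had no peak in any library within its window, and a gene with no peak has no count in these tables, so no value can be given for it. HAI3 (AT2G29380, chr2:12608675-12610350) had a start region in 3 libraries and a region over its 3' end in 2, and was not tested for that reason.

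**Figure D1:**
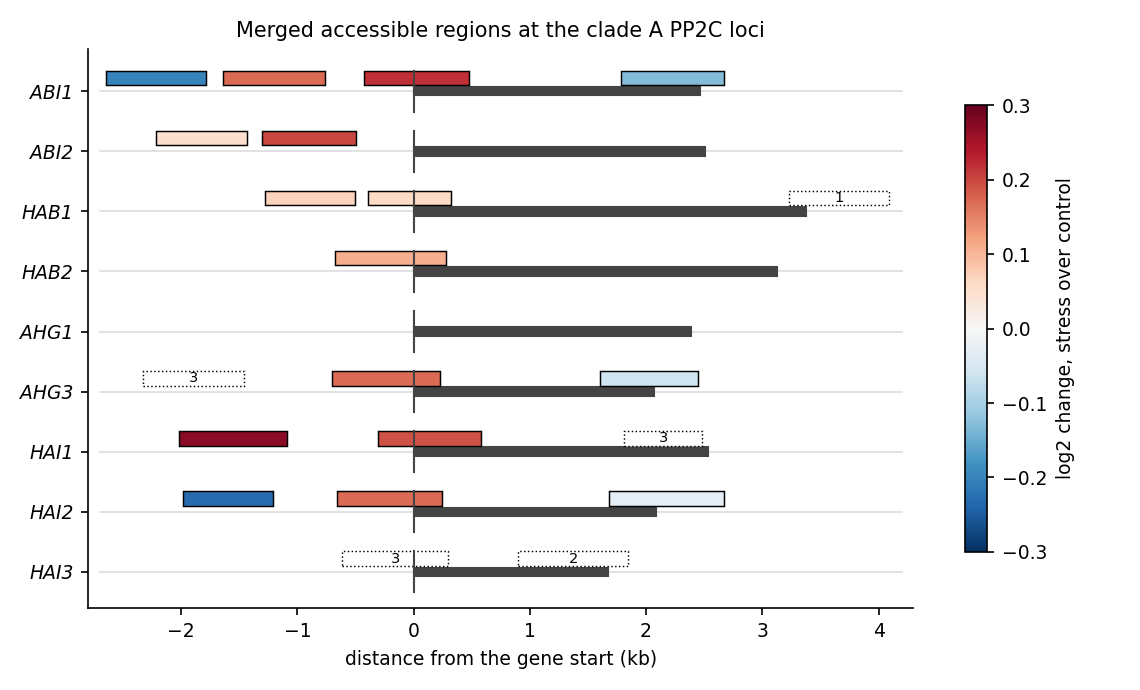
Merged accessible regions at the 9 loci, drawn by distance from the annotated gene start (kb, gene bodies as dark bars, transcription to the right). Boxes with a solid edge have a peak in all 4 libraries and are coloured by the log2 change of stress over control, and dotted boxes carry the number of libraries with a peak. AHG1 has no box, HAI3 has only dotted boxes, and the deepest red is the upstream region of HAI1.

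In all, 16 of the 21 regions had a peak in every library, and these were the ones tested. The other 5 were seen in some libraries only. At the HAI3 start the region held 31.8 CPM (counts per 1000000 counts in regions with a peak in all libraries, after TMM scaling) in control replicate 2, with 33.6 and 34.6 CPM in the stress libraries, and control replicate 1 had no peak there. The region of HAI3 over the 3' end held 34.4 CPM in control replicate 1 and 30.2 CPM in stress replicate 2. The upstream region of AHG3 (-2329 to -1461 bases from the start) held 56.4, 65.4 and 65.3 CPM in control replicate 2 and stress replicates 1 and 2, and the HAI1 region near the 3' end held 34.6, 41.8 and 43.6 CPM in the same libraries. Control replicate 1 had no peak at either of them. The remaining region, over the 3' end of HAB1 and the start of a serine tRNA gene, had a peak in stress replicate 2 only, with 42.4 CPM.

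The 250 bases before the start were searched for ACGTG, the core of the ABA-responsive element, on both strands. Of the 9 members, 6 held it, against 22.9% of 27444 protein-coding genes. AHG3 held 5 matches and HAI2 held 4, numbers reached by 0.445% and 1.34% of the genes. ABI1, ABI2 and HAI1 held none in this stretch. The start regions of HAI1 and ABI1, which reach past this stretch on both sides, held 3 matches and 1 match. ABI1, ABI2 and HAI1 all had matches in regions farther upstream. ABI2 had 1 match in the farther of its regions and 2 in the nearer, and the ABI1 region at -1639 to -766 bases from the start had 3, a number reached by 17.1% of 15911 shared regions of 800 to 1000 bases. The HAI1 region at -2016 to -1093 bases from the start held 7 matches in 924 bases, and 1.13% of the same regions held as many. A G-box, CACGTG, reads as ACGTG on both strands and so counts as 2 matches, and this HAI1 region held 3 G-boxes, a number reached by 0.874% of the same regions. The C-repeat core CCGAC, bound by DREB factors, was in the 250 bases of AHG1 and AHG3 only, against 12% of all genes, and was not in the upstream HAI1 region. Some stretches of AHG3 and HAI2 next to the start, and of HAI1 and ABI1 farther upstream, are shown, with ACGTG or its complement CACGT in capitals. They are a choice, and all lie in regions with positive log2 changes (0.17 to 0.27). Upstream regions of ABI2 and HAB1 with matches are not shown. Nor are the upstream region of HAI2 and the farthest of ABI1, which hold matches and had negative changes (-0.23 and -0.20). The stretches shown are given from 5' to 3' on the strand of the gene, from the TAIR10 sequence.
AHG3, chr3:3585851-3586100, minus strand: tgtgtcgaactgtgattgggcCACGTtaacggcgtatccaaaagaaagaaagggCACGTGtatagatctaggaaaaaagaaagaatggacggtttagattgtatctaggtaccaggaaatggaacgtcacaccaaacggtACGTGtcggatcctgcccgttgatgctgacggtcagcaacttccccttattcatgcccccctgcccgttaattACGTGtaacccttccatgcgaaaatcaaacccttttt
HAI2, chr1:2282829-2283078, minus strand: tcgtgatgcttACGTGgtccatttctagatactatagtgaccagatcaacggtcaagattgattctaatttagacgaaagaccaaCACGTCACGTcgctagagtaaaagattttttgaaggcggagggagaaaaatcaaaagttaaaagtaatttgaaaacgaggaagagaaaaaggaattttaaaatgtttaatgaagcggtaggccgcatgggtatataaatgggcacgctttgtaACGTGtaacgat
HAI1, chr5:23898595-23898818, minus strand: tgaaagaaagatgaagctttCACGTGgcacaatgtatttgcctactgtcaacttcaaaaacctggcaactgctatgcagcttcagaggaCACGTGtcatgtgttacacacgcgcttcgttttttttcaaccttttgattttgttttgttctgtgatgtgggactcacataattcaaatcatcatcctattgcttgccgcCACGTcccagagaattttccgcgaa
ABI1, chr4:13223448-13223564, minus strand: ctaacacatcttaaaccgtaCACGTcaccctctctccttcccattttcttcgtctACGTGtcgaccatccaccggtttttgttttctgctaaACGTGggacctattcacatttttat
The AHG3 and HAI2 stretches end at the base before the gene start. The HAI1 stretch spans -1879 to -1656 bases from the start and holds 5 of the 7 matches of its region, among them 2 G-boxes. The ABI1 stretch spans -1188 to -1072 bases from the start and holds all 3 matches of its region. A match is a run of letters, and binding was not measured. A relation between the number of matches in a region and its change under stress was not tested.

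Per length, AHG3 and HAB2 were the most open members. Over shared regions, AHG3 held 105 ± 5.88 CPM per kb (SD over the 4 libraries) and HAB2 97.0 ± 6.20, followed by ABI2 (91.7 ± 5.55), ABI1 (83.2 ± 1.82) and HAI1 (77.9 ± 7.96). HAB1 (64.9 ± 3.69) and HAI2 (59.8 ± 1.93) were lowest, near the median of 56.6 CPM per kb of all 18340 shared regions. Neighbours in this order overlapped over the libraries, except that all values of HAI1 (68.1 to 84.5) lay above those of HAB1 (59.4 to 67.4). At the start regions alone, AHG3 stood clear of the rest, with 107 to 132 CPM per kb against 87.8 to 101 for HAB2, and was above 98.2% of shared regions. The start region of HAI1 was the least open of the 6, at 56.1 to 68.0 CPM per kb, a range that overlapped that of ABI1 (62.1 to 76.8).

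The comparison of stress with control asks whether these loci opened or closed under osmotic stress. The largest difference among the members was at HAI1, and none of the 7 testable genes passed the threshold. For genes, CPM values sum the shared regions of the gene and are scaled to the total over all genes, so they are on another scale than those of single regions. With the quasi-likelihood test of edgeR and Benjamini-Hochberg adjustment over 23645 genes, 0 of 7 members had an adjusted p under 0.05, against 0.863% of all genes (204, of which 156 rose and 48 fell). At an unadjusted p under 0.05 there were 2 of 7, HAI1 and ABI2, against 21.8% of all genes. All 7 changes were positive, with a median log2 change of 0.09, except that HAB1 and HAI2 took -0.02 each without control replicate 1. Among all genes 49.4% were positive. In 4 members both stress libraries lay above both control libraries, a pattern that 28.7% of all genes showed, and in none did both lie below, against 28.6%.

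**Figure D2:**
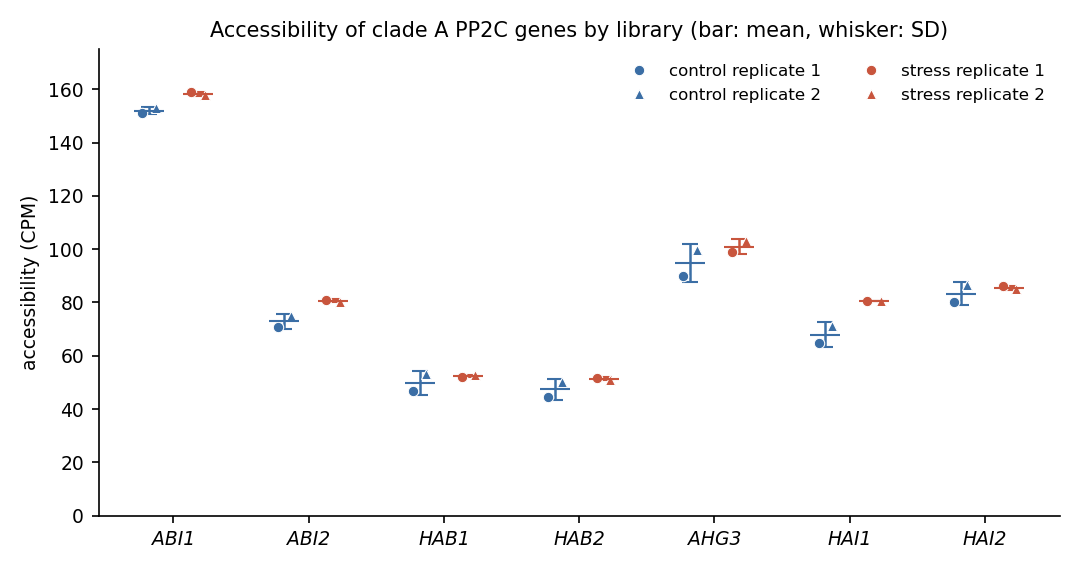
Accessibility of the 7 testable genes in each library (CPM, axis from 0), with the mean and SD of each group of 2 libraries. In each gene the distance between the points is wider in control than in stress, and the groups do not overlap at ABI1, ABI2, HAB2 and HAI1.

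HAI1, HAI2 and HAI3 are named as highly ABA-induced PP2Cs, after the strong rise of their transcripts with ABA, and are known for limiting the accumulation of proline and other solutes at low water potential. HAI1 (AT5G59220, chr5:23894404-23896939, minus strand) had 64.7 and 71.2 CPM in the control libraries and 80.63 and 80.55 CPM in the stress libraries. Both stress values were above both control values, and the 2 stress libraries differed by less than the control libraries did. The log2 change was 0.25 ± 0.05 (SE), with an edgeR adjusted p of 0.0849. HAI2 (AT1G07430, chr1:2280746-2282828, minus strand) had 80.3 and 86.4 CPM in control and 86.0 and 84.9 CPM in stress. Its groups overlapped, and the log2 change was 0.04 ± 0.05 (adjusted p = 0.696).

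ABI1 and ABI2 were found through mutants insensitive to ABA and are the founding members of the clade. ABI2 had 70.8 and 74.98 CPM in control and 81.0 and 80.4 CPM in stress, without overlap, a log2 change of 0.15 ± 0.05 (adjusted p = 0.14). ABI1 (AT4G26080, chr4:13219915-13222376, minus strand) had 151 and 153 CPM in control and 159 and 158 CPM in stress. These groups did not overlap either, but the log2 change was 0.06 ± 0.07 (adjusted p = 0.656).

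HAB1 and HAB2 are a pair of homologues, and loss of HAB1 makes plants hypersensitive to ABA. HAB2 (AT1G17550, chr1:6034270-6037398) had 44.6 and 50.2 CPM in control and 51.8 and 51.0 CPM in stress without overlap (log2 change 0.11 ± 0.06, adjusted p = 0.296). Its only region also lies in the window of AT1G17545, which RefSeq names a PP2C family protein. The region is in the window of AT1G17540 as well, near the start of that gene, and it enters the counts of all these genes. HAB1 (AT1G72770, chr1:27389948-27393327) had 46.7 and 53.0 CPM in control and 52.1 and 52.6 CPM in stress, with overlapping groups (0.07 ± 0.06, adjusted p = 0.521). AHG3 (AT3G11410, PP2CA in RefSeq, chr3:3583782-3585850, minus strand), which acts with AHG1 in seeds and also in vegetative tissue, had 89.7 and 99.8 CPM in control and 98.9 and 103 CPM in stress. Its groups overlapped as well (0.09 ± 0.06, adjusted p = 0.422). The size of these changes rested on the control library used: without control replicate 1 the log2 change was 0.03 at HAB2 and 0.02 at AHG3, and without control replicate 2 it was 0.20 and 0.17.

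In all 7 genes, control replicate 1 was the lowest library. Without it, the log2 change was 0.18 at HAI1 and 0.11 at ABI2, and without control replicate 2 it was 0.32 and 0.19. These fits leave 1 control library, so the spread between control libraries is not measured in them. No p-values are given for them. DESeq2 on the 4 libraries called HAI1 (adjusted p = 0.00431) and no other member, where it called 4.47% of all genes. With the replicate number as a block, edgeR called HAI1 as well (adjusted p = 0.00974), where it called 8.2% of all genes. The part that the lower number and higher depth of the nuclei of control replicate 1 have in these values was not tested.

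Within the loci the differences were not spread evenly. The 6 start regions all had positive changes, with a median log2 change of 0.17, except HAB1 without control replicate 1 (-0.01), and in 5 of them both stress libraries lay above both control libraries. Among 13144 start regions of protein-coding genes, 49.6% were positive and 27.8% lay above in both. The 3 regions over a 3' end (ABI1, AHG3 and HAI2) all had negative changes, with a median of -0.06. Their sign was not stable, since ABI1 took 0.004 without control replicate 1, AHG3 0.01 with peak width as an offset and HAI2 0.04 with the same nuclei per cluster. Of the 5681 such regions of protein-coding genes 39.3% were positive. Of the 7 upstream regions 5 were positive and 2 were negative. Over the 16 regions, both stress libraries lay above both control libraries in 9, against 29.4% of all regions, and below in 3, against 29.1%. None of the 16 regions passed the edgeR test over 18340 regions, against 1.15% of all regions. At an unadjusted p under 0.05 there were 7 of 16, against 23.5% of regions. DESeq2 called 4, against 12.4%, namely the HAI1 upstream region (adjusted p = 0.000606), the nearer upstream region of ABI2, the ABI1 start (0.0135) and the ABI1 region at RPS2 (0.022). With the replicate block, edgeR called the HAI1 upstream region alone (adjusted p = 0.0465), against 4.72% of regions.

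**Figure D3:**
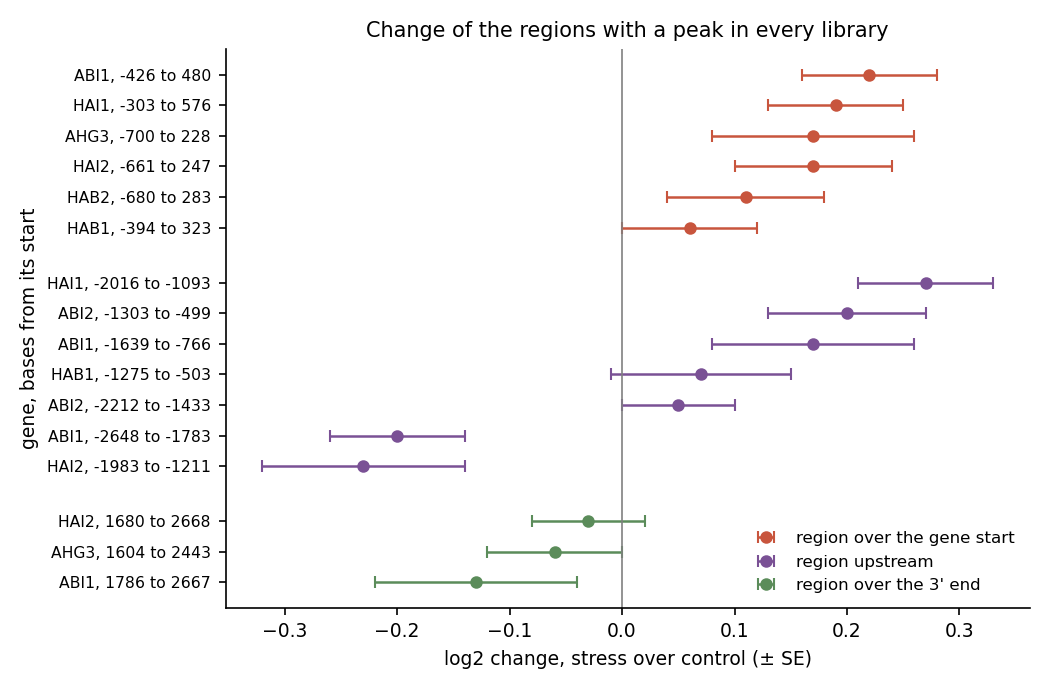
Log2 change of stress over control with its SE for the 16 regions with a peak in all 4 libraries, grouped by place and named by gene and by bases from the gene start. With all libraries, start regions lie right of 0 and 3' end regions left of it, though 1 start region and all 3' end regions cross 0 under some alternative, and the upstream regions run from -0.23 at HAI2 to 0.27 at HAI1.

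At HAI1, the intergenic region with 7 ACGTG matches (chr5:23898032-23898955) had the largest positive change of the 16. It held 73.5 and 79.9 CPM in control and 92.9 and 92.4 CPM in stress. Both stress libraries were above both control libraries, with a log2 change of 0.27 ± 0.06 (edgeR adjusted p = 0.0739). The start region of HAI1 (chr5:23896363-23897242) had the same sign, with 49.3 and 55.1 CPM in control and 59.5 and 59.8 CPM in stress, a log2 change of 0.19 ± 0.06 (adjusted p = 0.14). It holds 3 ACGTG matches, with 1 G-box among them.

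The 4 regions of ABI1 had changes of different sign, which the value of the whole gene averages. Its start region held 56.4 and 58.2 CPM in control and 69.7 and 63.7 CPM in stress, without overlap (log2 change 0.22 ± 0.06, edgeR adjusted p = 0.0975). The region with the 3 ACGTG matches shown above held 110 and 124 CPM in control and 133 and 130 CPM in stress (0.17 ± 0.09, adjusted p = 0.284). The farthest region, which covers the start of the divergent disease resistance gene RPS2, was lower in stress. It held 75.8 and 71.2 CPM in control and 62.1 and 65.9 CPM in stress, a log2 change of -0.20 ± 0.06 (adjusted p = 0.112). The ABI1 start region and the region with the 3 matches also lie in the window of RPS2. The region over the 3' end, next to the MAP kinase kinase gene MEK1, held 44.4 and 36.9 CPM in control and 35.99 and 38.1 CPM in stress, and its groups overlapped (-0.13 ± 0.09, adjusted p = 0.417).

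HAI2 showed a similar split. Its start region, which holds 6 ACGTG matches in all, held 67.9 and 76.2 CPM in control and 82.7 and 79.5 CPM in stress (log2 change 0.17 ± 0.07, edgeR adjusted p = 0.187). Its upstream region (-1983 to -1211 bases from the start) holds 3 ACGTG matches, with 1 G-box among them. This region held 27.9 and 30.9 CPM in control and 24.5 and 25.6 CPM in stress. That was the largest negative change of the 16 (-0.23 ± 0.09, edgeR adjusted p = 0.191). The region over the 3' end of HAI2 differed little, with 56.5 and 56.8 CPM against 55.4 and 55.4 CPM. At AHG3, the start region held 99.7 and 115 CPM in control and 120 and 123 CPM in stress (0.17 ± 0.09, adjusted p = 0.277), and the 3' end region 70.7 and 73.9 against 66.9 and 71.6 CPM.

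The ratio of the start region to the 3' end region of a gene does not depend on library scaling. It can depend on peak width, since counts cover only the peak called in each library, and it was not adjusted for width. At ABI1 the 3' end peak spanned 863 and 862 bases in control and 804 and 814 in stress. Its start peak spanned 857 and 843 against 876 and 874. At HAI2 the widths overlapped. With peak width as an offset, log2 changes of the 3' end regions were -0.04 (ABI1), 0.01 (AHG3) and -0.02 (HAI2). Those of the start regions were 0.18, 0.18 and 0.16. At ABI1 the ratio of the control libraries was 1.27 and 1.57, that of the stress libraries 1.94 and 1.67. The values were 1.41 and 1.56 against 1.80 and 1.71 at AHG3, and 1.2 and 1.34 against 1.49 and 1.44 at HAI2. In each of these 3 genes both stress ratios exceeded both control ratios. The same was true of 32.8% of 3309 protein-coding genes with both kinds of region, and the opposite of 21.0%.

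ABI2 and HAB1 had no region over a 3' end to set against the others in all libraries. The nearer upstream region of ABI2 held 77.9 and 87.0 CPM in control and 95.5 and 94.2 CPM in stress (log2 change 0.20 ± 0.07, edgeR adjusted p = 0.147, DESeq2 adjusted p = 0.0329). Its groups did not overlap. The farther one, which covers the start of AT5G57040, held 55.2 to 57.6 CPM in all 4 libraries. Both ABI2 regions lie in the window of AT5G57040, so neither belongs to ABI2 alone. The 2 regions of HAB1 held 42.2 to 49.6 CPM (upstream) and 46.5 to 51.9 CPM (start), with overlapping groups at both. The upstream one holds 3 ACGTG matches, with 1 G-box among them. Both HAB1 regions also lie in the window of AT1G72760. Without control replicate 1, 5 of the 16 regions passed the test (19% of all regions did), and without control replicate 2, 11 did (43.3%).

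To see in which nuclei the members were open, nuclei were clustered on shared regions without those of the 9 loci, and 9 clusters with at least 50 nuclei in every library were tested. Loci of cell type markers differed only modestly between clusters, and the clusters are given by number. Cluster 2 had the clearest signs of vascular tissue, with all 5 detected phloem marker loci above the other clusters (median log2 difference 0.29, NAC020 highest), and cluster 3 had 6 of 8 detected meristem marker loci above them (median 0.18). Cluster 6 was highest at MYB36, a regulator of the Casparian strip (log2 difference 0.89). These signs were not particular to 1 cluster. Of the 8 meristem loci, 7 lay above in cluster 2 (median 0.07) and 5 in clusters 4 and 7 (medians 0.08 and 0.11). In cluster 5, MYB36 had a log2 difference of 0.64, and all 5 detected endodermis marker loci lay above, as they did in cluster 6. No class of markers had a median above 0.09 in cluster 1 or above 0.07 in cluster 8. The 10 most raised loci of cluster 8 all lay on chromosome 2, with AT2G05395 highest (log2 difference 1.4). Those of clusters 3 and 7 lay on chromosome 2 as well. Regions of organelle-like sequence were left out of the clustering but stayed in the counts, and their part in these loci was not tested. Clusters 7 and 8 had the lowest median counts per nucleus of the tested clusters in every library. Whether barcodes of low quality have a part in these clusters was not tested. Shares of nuclei moved with the groups: cluster 1 held 11.5% and 13.7% of the control libraries and 18.1% and 18.3% of the stress libraries, and cluster 8 held 12.2% and 9.77% against 6.65% and 6.66%. Each library was centred before clustering, which can alter these shares.

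Levels across clusters are a description, in CPM of all shared region counts of a cluster. ABI1 varied most among the members, from 340 CPM in cluster 1 (330 to 357 over the libraries) to 166 in cluster 8 (140 to 182), a ratio of 2.05. For all genes tested, the median of this ratio was 1.54 and the upper quartile 2.09, so ABI1 lay below the upper quartile. The start region of ABI1 followed the same order, with 82.0 CPM in cluster 1 and 30.7 CPM in cluster 8. The other 6 members had ratios of 1.2 (HAB2) to 1.5 (HAI2), all under the median. Single regions of HAI2 varied more. Its upstream region held 46.6 CPM in cluster 2 (43.8 to 50.5) and 10.4 CPM in cluster 1 (9.1 to 11.2), a ratio of 4.5 and the largest of the 16 regions. The ratio was not computed over all regions. The 3' end region of HAI2 followed the same order (77.6 and 37.8 CPM), while its start region was highest in cluster 1 (88.3 CPM). With the same number of nuclei per cluster in each library, the log2 change of the upstream region between stress and control was -0.17, against -0.23 with all nuclei, and that of the HAI1 gene was 0.25 in both.

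HAI1 was the only member without overlap of the groups in every cluster. Its log2 change was positive in 9 of 9 clusters, from 0.14 in cluster 1 to 0.55 in cluster 8 with a median of 0.19, and in each cluster both stress libraries lay above both control libraries. In cluster 8, on the scale of the gene values, HAI1 held 53.7 and 48.7 CPM in control and 78.8 and 70.4 CPM in stress, from 255 to 328 counts per library. The edgeR adjusted p there was 0.0633 over the genes of the cluster and 0.0426 over all gene and cluster pairs, and within the cluster DESeq2 gave 0.446, edgeR with library totals 0.0472 and edgeR with the replicate block 0.0234. Leaving out 1 library gave log2 changes of 0.46 to 0.62 in this cluster. Cluster 8 was a smaller share of the stress libraries and shallower in them, with median counts per nucleus of 2648 and 2324 in control and 2006 and 2024 in stress, and the part of this in the difference was not tested. In the other clusters the adjusted p of HAI1 was at least 0.205 within the cluster. Clusters share libraries, so they do not repeat the comparison independently.

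**Figure D4:**
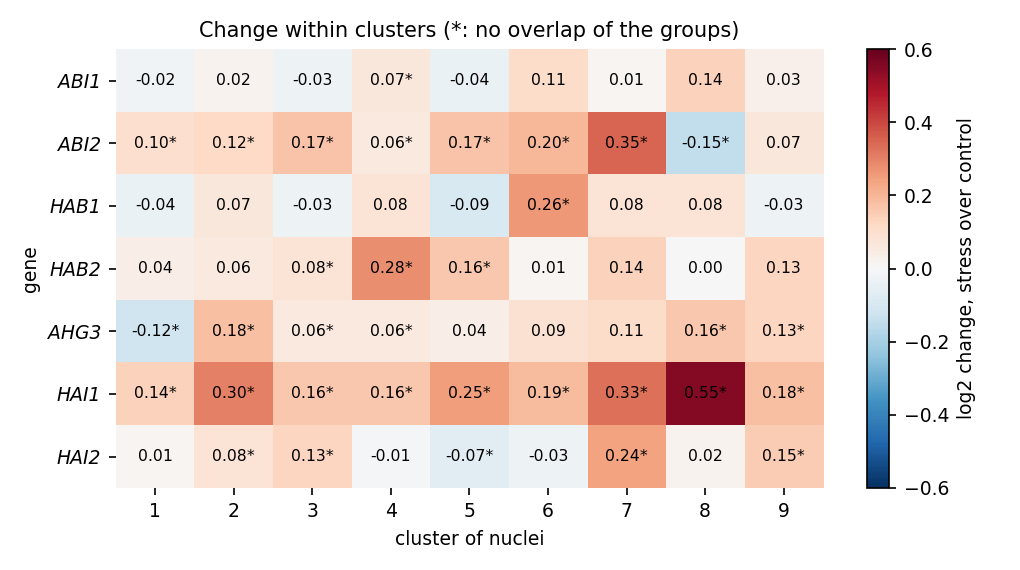
Log2 change of stress over control of the 7 testable genes (rows) in 9 clusters of nuclei (columns), with the value in each cell and an asterisk where the 2 stress and the 2 control libraries do not overlap. The HAI1 row is positive throughout and highest in cluster 8 (0.55), whereas ABI2 is highest in cluster 7 (0.35) and negative in cluster 8 (-0.15).

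Over the 63 pairs of member and cluster, 0 passed the test within their cluster, against 0.43% of all 212805 pairs, and 1 passed over all pairs (HAI1 in cluster 8), against 0.247%. DESeq2 called 0 within their cluster. For DESeq2 and the other alternatives, the share of all gene and cluster pairs called was not counted, so calls of pairs under them have no background. At an unadjusted p under 0.05 there were 10 of 63 in edgeR, against 11.7% of all pairs. Both stress libraries lay above both control libraries in 30 pairs and below in 3, where 21.2% of all pairs lay above and 21.2% below. ABI2 was above in clusters 1 to 7, with its largest change in cluster 7, from 58.4 and 65.7 CPM to 78.0 and 80.2 CPM (log2 change 0.35 ± 0.12, adjusted p = 0.404). It lay below in cluster 8, with 71.1 and 66.6 CPM against 58.8 and 65.3 CPM (-0.15 ± 0.13, adjusted p = 0.817). AHG3 was above in 5 clusters and below in cluster 1 (-0.12), and without control replicate 1 its change in cluster 1 passed the edgeR test (-0.18, adjusted p = 0.0165). Without control replicate 2, HAI1 passed in clusters 2 (0.33, adjusted p = 0.0417) and 5 (0.55, adjusted p = 0.000333), and without control replicate 1 its change in cluster 5 was 0.03.

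The rest of the core pathway, receptors above the phosphatases and kinases and factors below them, was taken as 3 lists of genes. None of the 24 tested genes for receptors, kinases and bZIP factors passed the test in edgeR or DESeq2, where 0.863% and 4.47% of all genes did, and 8 of 24 had an unadjusted p under 0.05 in edgeR, against 21.8%. With the replicate block 2 passed, PYL4 (adjusted p = 0.0455) and PYL8, against 8.2% of all genes. Of 14 PYR/PYL receptor genes 9 were tested, with a median log2 change of 0.06. PYL4 had the largest positive change, from 61.3 and 70.6 CPM to 75.14 and 75.05 CPM (log2 change 0.19 ± 0.07, adjusted p = 0.174), and PYL11 the largest negative one, from 21.0 and 19.9 CPM to 17.9 and 17.8 CPM (-0.20 ± 0.07, adjusted p = 0.156). All 10 SnRK2 kinase genes were tested (median 0.06), from SNRK2.5 (-0.06 ± 0.05) to SNRK2.9, which had 47.6 and 49.8 CPM in control and 55.1 and 53.3 CPM in stress (0.15 ± 0.04, adjusted p = 0.120). Of the 8 bZIP genes 5 were tested, with a median of 0.08, from ABI5 (0.01 ± 0.05, with negative values in some alternatives) to ABF3, which had 36.1 and 38.8 CPM in control and 42.7 and 41.1 CPM in stress (0.16 ± 0.05, adjusted p = 0.154). Without control replicate 1 the log2 change was 0.09 at PYL4 and 0.11 at ABF3, and without control replicate 2 it was 0.29 and 0.22.

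**Figure D5:**
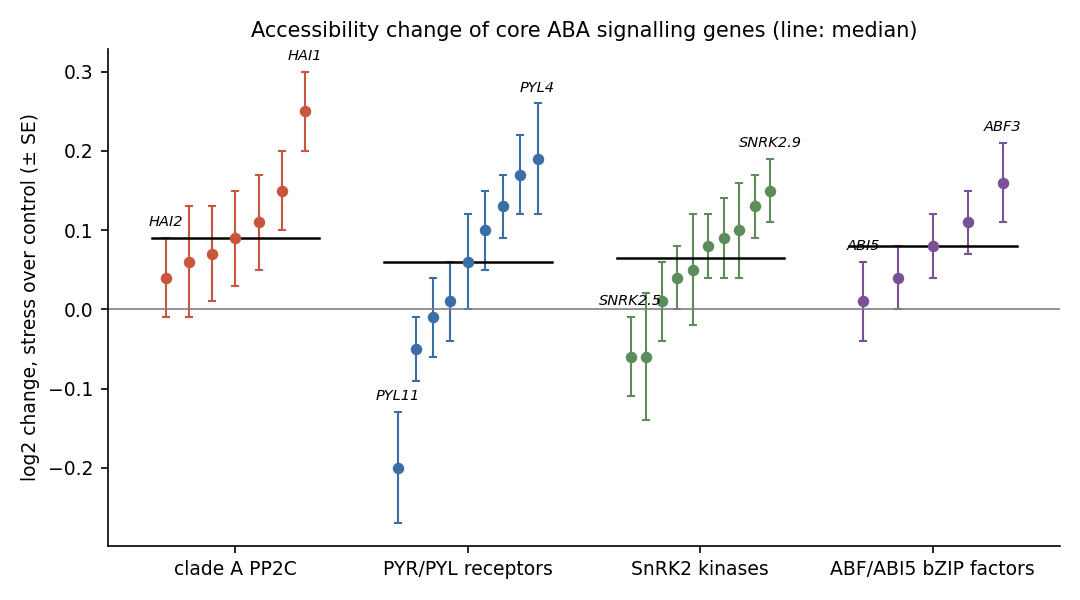
Log2 change of stress over control with its SE for each tested gene of 4 groups of core ABA signalling genes, with the median of each group as a line and the lowest and highest gene named. The medians run from 0.06 (receptors and kinases) to 0.09 (clade A PP2Cs), and HAI1 has the highest value (0.25) of all genes shown.

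Outside clade A, 50 of 61 genes that RefSeq names as protein phosphatases 2C were tested. None passed the edgeR test, 3 passed with DESeq2, 10 without control replicate 1 and 23 without control replicate 2. Over all genes the shares were 0.863%, 4.47%, 20.3% and 43.4%. In edgeR 8 of the 50 had an unadjusted p under 0.05, against 21.8% of all genes, and the median log2 change was 0.03 (-0.13 to 0.28). Both stress libraries lay above both control libraries in 17 of the 50 (34%) and below them in 4 (8.0%), against 28.7% and 28.6% of all genes, and the clade had 4 and 0 of 7. A difference between clade A and the other PP2C genes was not tested.

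Genes with the most similar pattern were sought by the Pearson correlation of log2 CPM over the 36 combinations of cluster and library, among tested genes that share no region with the member. These points share libraries and depth, and the values are a description. For HAI1 they were AT1G78060 (r = 0.816), BT1 (0.811) and RPK1 (0.798). For ABI1 they were AT4G25225 and RIN2, which lie next to each other (0.954 each), and UBP20 (0.952). ABI2 was most like ABCF5 (0.836), AT5G64850 (0.813) and AT5G56260 (0.796). HAB1 came with HFR1 and AT1G02350 (0.799 each) and SDH1-1 (0.786), and HAB2 with AtCDC48C and AT5G03345 (0.721 each) and AT1G05197 (0.719). The genes closest to AHG3 were NiaP (0.924), AT3G10750 (0.91) and AT3G10760 (0.893), and those closest to HAI2 were AT1G75640 (0.87), AT5G60580 (0.837) and AT1G06303 (0.835). Among the members, ABI2 and HAI1 were the most alike (0.598), and HAI2 was the least like the rest, with correlations of -0.203 to 0.183.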

How the data were processed

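Nuclei of root tips were assayed in 4 libraries, 2 per group after the labels. Raw counts deposited by the authors, from Cell Ranger ARC 2.0.2 with a TAIR10 reference, are of ATAC cut sites and RNA molecules per barcode without normalization, and peaks were called in each library alone. The submitters' processing notes also name Signac 1.7.0 and Seurat 4.3.0. Only peak counts were used here. A barcode was taken as a nucleus when its ATAC counts lay between 1000 and 100000 and its RNA counts between 1000 and 25000, after the study's limits. No doublet caller was run. Filters that need fragments were not applied.

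Peaks that overlapped or touched were merged (27677 regions). Counts of the 18340 regions found in every library were summed per library, and per gene over the body and 2 kb upstream, with gene positions from the RefSeq annotation of TAIR10.1, whose nuclear chromosomes have the same sequence. The build was checked on the peaks, since 61% to 64.6% of them held a gene start and 25.6% or fewer did once moved by 10000 bases. The order of the rows was checked between libraries, where counts of overlapping peaks had rank correlations of 0.935 to 0.991.

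The main test was the quasi-likelihood test of edgeR 4.0.16 (R 4.3.3) with TMM and filterByExpr, two-sided, Benjamini-Hochberg adjustment over all features and a threshold of 0.05. DESeq2 1.42.0, other normalizations, filters, nuclei and regions, left-out libraries and a replicate block were alternatives. With 2 libraries a group, the design cannot give an exact permutation p under 0.333. Standard errors were derived from the F statistic, and errors on levels are SDs over libraries. Where separate plants per library are not stated in the labels, p-values measure the spread between these libraries, which the study calls biological replicates. Same-numbered libraries did not deviate together (correlations of deviations 0.00841 over genes and -0.00886 over regions). The tests were tested on simulated data. Nuclei were clustered by Leiden at a resolution of 1 on latent components of the shared regions without those of the members, of organelle-like sequence and of ribosomal RNA genes. The components were first centred in each library, which can remove part of a difference between groups. Regions left out of the clustering stayed in the counts. A cluster of 39 barcodes, 36 of them in control replicate 1, was not tested.

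All members and their regions are described. Of the other pathway lists, genes past the threshold and the largest changes in each direction are named. The members and lists were chosen with earlier results of these data known.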

Additional observations from a re-analysis of the deposited data

Results flagged for a closer look

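Changes of opposite direction between clusters were seen at 3 members. In none was the difference between clusters tested. At ABI2, both stress libraries lay above both control libraries in clusters 1 to 7 and below them in cluster 8, and the log2 changes of clusters 7 and 8 (0.35 and -0.15) lay 0.50 apart. At AHG3, both lay above in clusters 2, 3, 4, 8 and 9 and below in cluster 1, with 0.30 between clusters 2 (0.18) and 1 (-0.12). At HAI2, both lay above in clusters 2, 3, 7 and 9 and below in cluster 5, with 0.31 between clusters 7 (0.24) and 5 (-0.07). Over all genes, 21.2% of gene and cluster pairs lay above and 21.2% below in this way. These shares are of pairs. The share of all genes with both directions among their clusters was not counted, so the number of such members has no background here.

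A peak over the 3' end of HAB1 and the start of a serine tRNA gene, from 3233 to 4087 bases after the HAB1 start, was present in stress replicate 2 only, with 2296 counts. The other libraries have no peak there and so no count, and the region entered no comparison.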

How the results depend on the processing

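None of the 7 genes and 16 regions lost a call under any alternative, since none was called to begin with. HAI1 kept a positive log2 change under all 15 alternatives (0.18 to 0.40, edgeR or DESeq2 adjusted p from 7.86e-17 to 0.563) and passed the threshold under 4 of them (DESeq2, the replicate block, and leaving out either control library). With 2 libraries a group, which library is left out decides most calls. Leaving out 1 library gave 0 to 6 member genes, 0 to 11 member regions, 0 to 2 member and cluster pairs and 0 to 10 other pathway genes past the threshold, and 133 to 10257 genes and 36 to 7947 regions over the whole tables, with the highest counts without control replicate 2. Log2 changes that changed sign ranged from -0.02 to 0.17 (HAB1), -0.02 to 0.09 (HAI2), -0.12 to 0.01 (SNRK2.5), -0.03 to 0.05 (ABI5), -0.26 to 0.004 (ABI1 region over the 3' end), -0.04 to 0.20 (HAB1 upstream region) and -0.01 to 0.13 (HAB1 start region).

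With DESeq2, 1 member gene, 4 member regions, 1057 genes and 2270 regions passed, against 0, 0, 204 and 210 in edgeR. Library totals gave 74 genes, 59 regions and 1 member and cluster pair (HAI1 in cluster 8). Without the top 5% of nuclei there were 60 genes and 106 regions, with at least 2000 ATAC counts 322 regions, with the same nuclei per cluster 96 regions, with a peak width offset 425 and with a stricter overlap of peaks 321. Counting every peak, with 0 where a library had none, left 0 genes and 0 regions in edgeR (3167 and 4196 at an unadjusted p under 0.05; DESeq2 was not run on these). The cause of these shifts was not tested. The replicate numbers pair no plants, cultures or days in the labels, and same-numbered libraries did not deviate together. With the replicate block, 1 member gene (HAI1), 1 member region (HAI1 upstream), 1 member and cluster pair (HAI1 in cluster 8), 2 pathway genes, 1940 genes and 865 regions passed. With the same nuclei per cluster the log2 change of ABI5 was -0.02, that of the farther ABI2 region -0.03 and that of the HAI2 region over the 3' end 0.04, and after a peak width offset the farther ABI2 region had -0.02 and the AHG3 region over the 3' end 0.01.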
